A study of Danio rerio with 8 samples.

Results

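The genes described here are 10 genes of haemoglobin production and red cell physiology in zebrafish, namely the adult globin genes hbaa1, hbaa2, hbba1 and hbba2, the haem synthesis genes alas2, urod and fech, and 3 genes that work beside them, cahz, tspo and tfr1a. A gene was measured where the array annotation paired a probe set with that gene symbol and no other. By this rule 8 of the 10 genes had 9 probe sets between them, 2 for hbaa2 and 1 for each of the others, out of 19260 genes with such a probe set. hbaa1 and hbba1 have no value here, because each of the 3 probe sets that carry their symbols carries other genes as well. All 8 measured genes lay above the level used to set aside dim genes, a mean of 5.52 over the 8 arrays (log2), which left 13774 genes to test.

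The cells came from the kidney, the organ in which adult zebrafish form blood, at 60 days post fertilisation. Wild-type fish were compared with fish that lack both genes of the microRNA miR-142-3p, a genotype the labels write as 142ab-/-, and no strain is given. From each genotype the study sorted myelomonocytes, the granulocyte and monocyte lineage, and whole kidney marrow cells without erythrocytes, abbreviated WKMs. There were 2 biological replicates per group, each from 4 kidneys and on 1 array, so the 4 groups make 8 arrays, and the sort gates are not given. No probe set was named for the microRNA itself (0 in the annotation), so the knockout was not checked on these arrays. Across the genes tested, which are not independent of each other, the correlation was 0.988 to 0.992 between replicate arrays and 0.907 to 0.974 between groups. The comparisons below draw on the same 4 groups and so share arrays.

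Haemoglobin carries oxygen in red cells and is built from alpha and beta globin chains, each holding a haem. Haem synthesis starts in the mitochondrion, continues in the cytosol and ends in the mitochondrion, where iron is inserted into the porphyrin ring. In red cell precursors the first step is made by alas2, the erythroid 5-aminolevulinate synthase, urod (uroporphyrinogen decarboxylase) works in the cytosol, and fech (ferrochelatase) inserts the iron. Zebrafish mutants in these 3 genes, known as sauternes, yquem and dracula, have defects of haem in the blood. tfr1a, the transferrin receptor gene mutated in chianti fish, brings iron into red cell precursors. cahz is a carbonic anhydrase of red cells, and tspo is an outer mitochondrial membrane protein that binds cholesterol and porphyrins.

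In every group these transcripts were well above the dim level, and the groups stood in the same order for each of the 8 genes: 142ab-/- myelomonocytes lowest, then wild-type myelomonocytes, then wild-type WKMs, then 142ab-/- WKMs. Levels below are log2 probe set values from single arrays, in a table whose highest value is 13.76. A level says nothing about the amount of 1 transcript against another, since each probe set has its own response.

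alas2 read 11.72 and 11.83 in wild-type myelomonocytes, 11.18 and 11.34 in 142ab-/- myelomonocytes, 12.22 and 12.32 in wild-type WKMs, and 12.41 and 12.57 in 142ab-/- WKMs. The 4 pairs of arrays did not overlap, and the closest neighbours were the WKM groups, whose nearest arrays lay 0.08 apart. urod read 9.62 and 9.76 in wild-type myelomonocytes, 9.09 and 9.40 in 142ab-/- myelomonocytes, 11.02 and 11.33 in wild-type WKMs, and 11.38 and 11.74 in 142ab-/- WKMs. It had the widest step between the populations, with 1.27 between the nearest arrays of wild-type myelomonocytes and wild-type WKMs. fech read 10.22 and 10.37 in wild-type myelomonocytes, 9.39 and 9.60 in 142ab-/- myelomonocytes, 11.09 and 11.19 in wild-type WKMs, and 11.26 and 11.67 in 142ab-/- WKMs. Its knockout arrays lay below both wild-type arrays in myelomonocytes and above both in WKMs, by 0.62 and 0.07 between the nearest arrays.

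The alpha globin gene hbaa2 read 12.04 and 12.51 in wild-type myelomonocytes, 11.46 and 11.63 in 142ab-/- myelomonocytes, 12.56 and 12.80 in wild-type WKMs, and 12.69 and 12.88 in 142ab-/- WKMs. The WKM genotypes overlapped, and wild-type myelomonocytes and wild-type WKMs were only 0.04 apart at their nearest arrays. A second hbaa2 probe set read 7.07 and 7.76, 6.53 and 6.47, 7.96 and 8.27, and 8.06 and 8.43 in the same 4 groups, and gave the same order. The beta globin gene hbba2 read 11.84 and 12.30 in wild-type myelomonocytes, 11.30 and 11.45 in 142ab-/- myelomonocytes, 12.28 and 12.77 in wild-type WKMs, and 12.68 and 12.70 in 142ab-/- WKMs. The wild-type WKMs overlapped both neighbouring groups, so in the order for hbba2 only the knockout myelomonocytes stood apart from the next group. In the gene order of the RefSeq assembly GRCz12tu, hbaa2 and hbba2 are neighbours whose annotated spans overlap, with hbaa1 and hbba1 further along the same chromosome. Adult globin copies are near-identical and the strand read by each probe set is not given here, so the globin values may hold signal from more than 1 copy.

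cahz read 11.89 and 11.98 in wild-type myelomonocytes, 11.31 and 11.39 in 142ab-/- myelomonocytes, 12.28 and 12.45 in wild-type WKMs, and 12.37 and 12.38 in 142ab-/- WKMs. Both knockout WKM arrays fell between the wild-type WKM arrays, while the knockout myelomonocytes lay 0.50 below the nearest wild-type array. tspo read 11.79 and 11.94 in wild-type myelomonocytes, 11.52 and 11.67 in 142ab-/- myelomonocytes, 12.38 and 12.41 in wild-type WKMs, and 12.39 and 12.64 in 142ab-/- WKMs. Its WKM genotypes overlapped. tfr1a read 11.33 and 11.44 in wild-type myelomonocytes, 11.01 and 11.24 in 142ab-/- myelomonocytes, 12.40 and 12.51 in wild-type WKMs, and 12.77 and 12.91 in 142ab-/- WKMs. No neighbouring groups of tfr1a overlapped, and the populations were 0.96 apart at their nearest wild-type arrays.

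**Figure D1:**
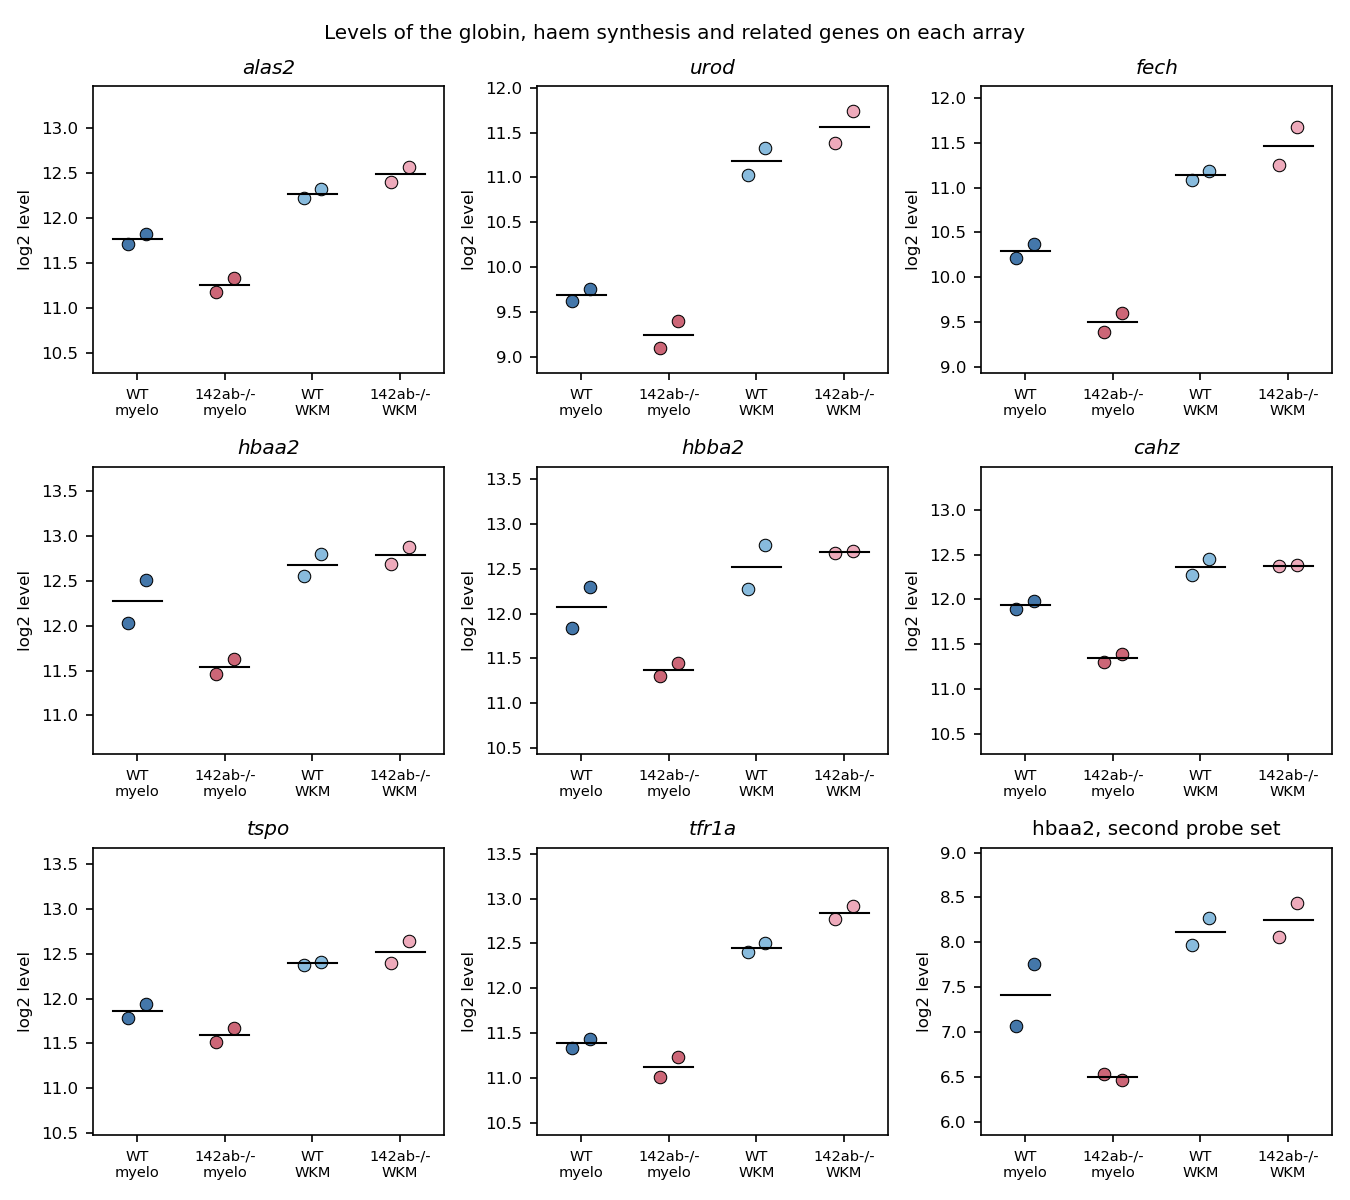
Log2 level on each of the 8 arrays (points) and group mean (line) for the 8 genes and the second hbaa2 probe set, with wild-type (WT) and 142ab-/- myelomonocytes (myelo) and WKMs along the x axis; every panel spans the same log2 range around its own centre. Knockout myelomonocytes are the lowest group in each panel, for example at 9.50 for fech against 10.29 in wild-type myelomonocytes.

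The comparison of genotypes in myelomonocytes asked how the loss of miR-142-3p altered these transcripts in the sorted myeloid cells. fech, hbaa2, cahz and alas2 fell in the knockout by 1.43-fold to 1.74-fold, and hbba2, urod, tspo and tfr1a were lower by up to 1.62-fold without passing the test. fech, the last enzyme of the pathway, changed by -0.80 ± 0.15 (log2, SE; 10.29 ± 0.11 to 9.50 ± 0.15, SD, n = 2 per group; limma, adjusted p = 0.0141). hbaa2 changed by -0.73 ± 0.17 (adjusted p = 0.0305), cahz by -0.59 ± 0.10 (adjusted p = 0.00927) and alas2, the first enzyme, by -0.51 ± 0.11 (adjusted p = 0.0213). In all, 4 of the 8 genes were called lower and 0 higher, where limma called 5.51% of all genes tested lower and 12.4% in either direction. The median change was -0.55 over the 8 genes and 0.01 over all genes tested.

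The other 4 genes stayed above an adjusted p of 0.05 in this comparison. hbba2 changed by -0.70 ± 0.19 (limma, adjusted p = 0.0521), a change close to that of hbaa2. urod changed by -0.45 ± 0.17 (adjusted p = 0.128), tspo by -0.27 ± 0.12 (adjusted p = 0.183) and tfr1a by -0.26 ± 0.11 (adjusted p = 0.190). The second hbaa2 probe set changed by -0.91 ± 0.25, with an adjusted p = 0.120 when every probe set of the table was tested. Both knockout arrays lay below both wild-type arrays for 8 of 8 genes, as they did for 26.6% of all genes tested. The 8 genes are not independent readings of the cells, since in each of the 4 groups the same array gave the higher value for all 8, on the probe set used for each.

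These calls rested on few arrays. Without wild-type myelomonocyte replicate 2, with the remaining wild-type array assumed to vary like the other groups, limma called 0 of the 8 genes, and the adjusted p was 0.0641 for cahz, 0.0823 for fech, 0.119 for alas2 and 0.142 for hbaa2. Without 142ab-/- myelomonocyte replicate 1 only cahz was called, with adjusted p = 0.0621 for fech, 0.0823 for alas2 and 0.115 for hbaa2. alas2 also missed the threshold without wild-type myelomonocyte replicate 1 (0.0676) and hbaa2 without 142ab-/- myelomonocyte replicate 2 (0.0631), while hbba2 passed without wild-type myelomonocyte replicate 1 (0.0479) or without either wild-type WKM array (0.0380). The direction of all 8 changes held in each of these fits, between -0.97 and -0.15.

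**Figure D2:**
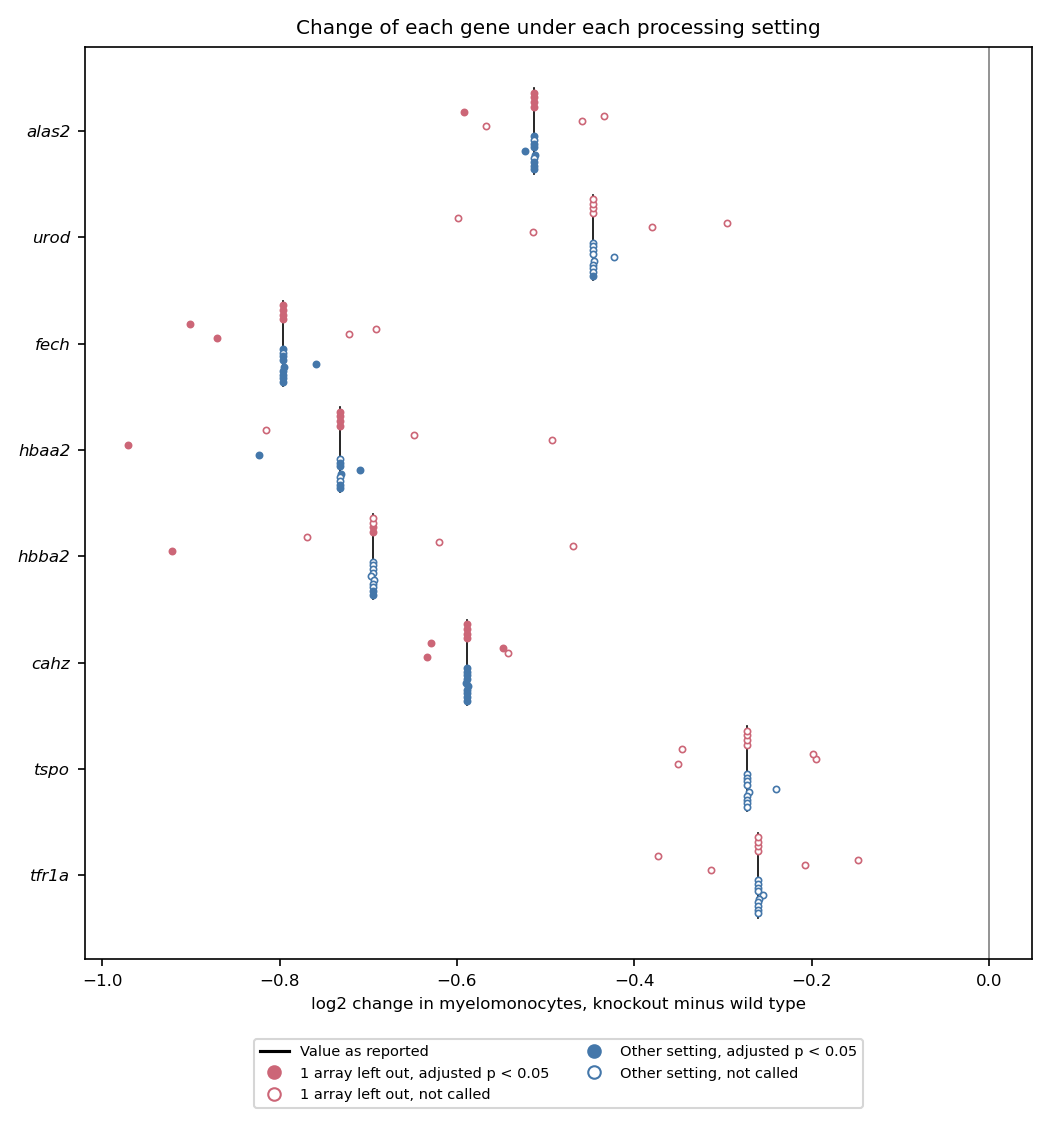
Log2 change in myelomonocytes, knockout minus wild type, for each of the 8 genes (rows) as reported (black line), with 1 array left out (red) and under the other settings (blue); filled points passed an adjusted p of 0.05 and open points did not. All points lie below 0, and cahz keeps its call everywhere but without wild-type myelomonocyte replicate 2, where its adjusted p was 0.0641.

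Some markers of other cells moved in the same comparison, in which limma called 12.4% of all genes tested in either direction. Of 18 measured red cell genes other than the 8, such as those of the membrane skeleton and erythroid transcription factors, 14 fell and 0 rose, with a median change of -0.72. The count was 8 without 142ab-/- myelomonocyte replicate 2, and also 8 without either wild-type myelomonocyte array. Their mean log2 level ran from 9.68 to 9.71 in wild-type and from 8.78 to 8.95 in knockout myelomonocytes. Of 10 neutrophil markers limma called 0 (1 at an unadjusted p under 0.05), and their mean level was 12.44 in both wild-type and 12.47 to 12.49 in the knockout arrays. Of 11 kidney tubule and podocyte markers 5 rose, but only 1 without 142ab-/- replicate 2 or wild-type replicate 1 of the myelomonocytes and 2 without wild-type myelomonocyte replicate 2 or either wild-type WKM array. Their mean level went from 7.97 to 8.25 in wild-type to 8.50 to 8.69 in knockout arrays. Of 6 monocyte and macrophage markers 1 fell, c1qb, named after its values were seen, at -0.81 ± 0.21 (limma, adjusted p = 0.0400). The 6 had a median change of -0.45, with 5 below 0 and 4 at an unadjusted p under 0.05. Leaving out 1 array moved the number called in both directions, and c1qb lost its call without 142ab-/- myelomonocyte replicate 2. Their mean level ran from 9.85 to 9.91 in wild-type and from 9.26 to 9.61 in knockout arrays. Among the B cell markers 1 of 7 fell, and 1 marker rose among the 5 of T and NK cells, the 5 of thrombocytes and the 7 of stem and progenitor cells each. Single calls in lists this short are near the 12.4% of all genes and are not read as a change of those cells. The T and NK cell marker was lck, a kinase of T cells, also named after its values were seen, at 1.80 ± 0.20 (adjusted p = 0.00201). The mean level of the 5 T and NK cell markers, lck included, went from 5.98 to 6.01 in wild-type to 6.11 to 6.62 in knockout arrays. Of these 5 markers 3 changed upward and 2 downward, with a median change of only 0.03. limma put 4 of them at an unadjusted p under 0.05. So stood 1 of the 7 B cell, 2 of the 5 thrombocyte and 4 of the 7 stem and progenitor markers. The share of all genes at that unadjusted threshold is not given here for myelomonocytes. None of the unadjusted counts in this paragraph is therefore read as a change of cells. In bulk samples, fewer red cell precursors and less RNA per cell cannot be told apart. The part of these marker changes in the globin and haem results was not tested.

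In WKMs the same comparison of genotypes gave no call. All 8 genes lay on the higher side in the knockout, with a median change of 0.19 against 0.01 over all genes tested, but limma called 0 of 8, where it called 9.28% of all genes. At an unadjusted p under 0.05 there were 2 genes, tfr1a and urod, against 24.7% of all genes. tfr1a, the iron importer, was 0.39 ± 0.11 higher (limma, adjusted p = 0.0769), going from 12.45 ± 0.08 to 12.84 ± 0.10 (SD, n = 2 per group). urod was 0.39 ± 0.17 higher (adjusted p = 0.201), fech 0.33 ± 0.15 higher (adjusted p = 0.230) and alas2 0.21 ± 0.11 higher (adjusted p = 0.273). For these 4 genes both knockout arrays lay above both wild-type arrays, as for 28.1% of all genes, and for the other 4 the arrays overlapped.

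The globin genes and cahz had small measured differences in WKMs. The difference was 0.11 for hbaa2, with a 95% confidence interval from -0.29 to 0.50, and 0.17 for hbba2, from -0.27 to 0.61. It was 0.01 for cahz, from -0.22 to 0.25, and 0.12 for tspo, from -0.15 to 0.39. An interval of this width leaves room for changes of up to 0.61, so equality between the genotypes was not shown. The second hbaa2 probe set differed by 0.13 ± 0.25, a larger SE, with a limma adjusted p = 0.885 when every probe set of the table was tested. Without wild-type WKM replicate 1 the estimates for hbaa2, hbba2 and cahz turned to -0.019, -0.079 and -0.069. Among the 18 other red cell genes 2 fell, gypc and nfe2, named after their values were seen, and neither kept its call when any 1 of the 4 WKM arrays was left out. The mean level of all 18 ran from 10.45 to 10.52 in wild-type and from 10.42 to 10.64 in knockout WKMs. Of other markers, limma called 2 of 7 lower for B cells and 2 of 5 for T and NK cells, against 9.28% of all genes in either direction. The latter count was 1 without wild-type or 142ab-/- WKM replicate 2. The other lists had 1 call each, or 0 for neutrophils. The mean B cell marker level went from 9.63 to 9.71 in wild-type to 8.97 to 9.33 in knockout WKMs. The part of these changes in the globin and haem results was not tested.

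**Figure D3:**
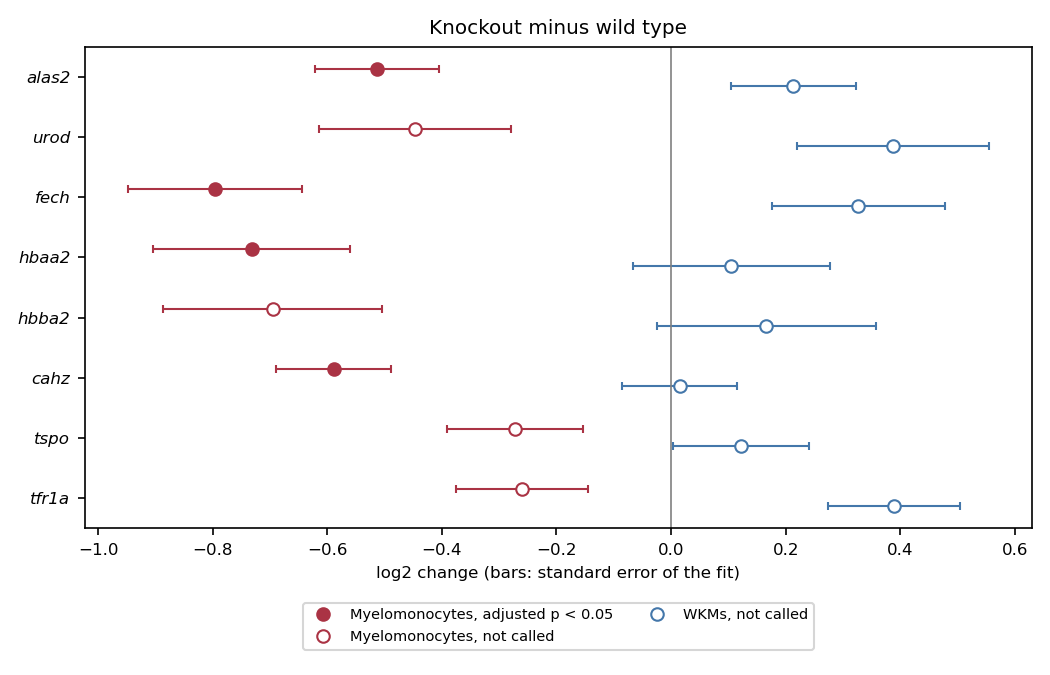
Log2 change, knockout minus wild type, of the 8 genes (rows) in myelomonocytes (red) and WKMs (blue), with bars for the standard error of the fit; filled points passed an adjusted p of 0.05. The 8 red points run from -0.80 to -0.26 and the 8 blue points from 0.01 to 0.39.

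Whether the genotype change differed between the populations was tested as the difference of the 2 changes. All 8 differences were below 0, with the myelomonocyte change minus the WKM change from -1.12 ± 0.21 for fech to -0.39 ± 0.17 for tspo. limma called 0 of 8 genes at an adjusted p under 0.05, in a comparison where it called 0.276% of all genes, and 8 of 8 were lower at an unadjusted p under 0.05, against 7.35% of all genes. The adjusted p was 0.101 for fech, 0.117 for alas2, 0.137 for cahz, 0.156 for tfr1a, 0.184 for urod, 0.192 for hbaa2, 0.223 for hbba2 and 0.346 for tspo. The second hbaa2 probe set stood at -1.05 ± 0.35, with a limma adjusted p = 0.446 when every probe set of the table was tested. With a variance prior that follows the mean level and is robust to outlying genes, limma called 4 of 8. The adjusted p was then 0.0239 for alas2, 0.0289 for cahz, 0.0319 for fech and 0.0437 for tfr1a. The 0.276% above belongs to the main fit, and the share of all genes called with this prior is not given here. The median difference was -0.78 over the 8 genes and 0.03 over all genes tested. Of the 18 other red cell genes, 2 were called in this test, gypc and sptb, which encodes beta spectrin of the membrane skeleton. gypc, at the dim level in knockout myelomonocytes (5.53), stood at -2.24 ± 0.32 (limma, adjusted p = 0.0472) and sptb at -1.33 ± 0.18 (0.0382). Both genes lost the call with every probe set tested and with quantile normalization. They were named after their values were seen, and the count was 1 without 142ab-/- myelomonocyte replicate 1 and 0 without any other array.

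The comparison of populations showed where these transcripts were more abundant. In wild-type fish, urod, tfr1a, fech, tspo, alas2 and cahz were lower in myelomonocytes than in WKMs, by 1.34-fold to 2.80-fold, and the globin genes did not pass. The difference was -1.49 ± 0.17 for urod (limma, adjusted p = 0.000577), -1.07 ± 0.11 for tfr1a (0.000461) and -0.84 ± 0.15 for fech (0.00416). It was -0.40 ± 0.17 for hbaa2 (adjusted p = 0.102) and -0.45 ± 0.19 for hbba2 (0.0987). The second hbaa2 probe set differed by -0.70 ± 0.25, with a limma adjusted p = 0.117 when every probe set of the table was tested. When same-numbered replicates were fitted as a block both globin genes were called, though the labels do not tie those numbers to shared fish. In all, 6 of 8 were called lower and 0 higher, where 20.1% of all genes were called lower. Without wild-type myelomonocyte replicate 1 or wild-type WKM replicate 2 the count was 3, with alas2, cahz and tspo above the threshold (adjusted p from 0.0560 to 0.0841), and without wild-type myelomonocyte replicate 2 or wild-type WKM replicate 1 it was 7, with hbaa2 at 0.0319 or hbba2 at 0.0427.

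In 142ab-/- fish all 8 genes were called lower in myelomonocytes than in WKMs, where 22.6% of all genes were called lower. The steps ran from -0.92 ± 0.12 for tspo (limma, adjusted p = 0.000629) to -2.32 ± 0.17 for urod (7.30e-05), or 1.90-fold to 4.99-fold. hbaa2 differed by -1.24 ± 0.17 (0.000876), hbba2 by -1.32 ± 0.19 (0.00108), alas2 by -1.23 ± 0.11 (0.000143) and fech by -1.97 ± 0.15 (8.92e-05). The second hbaa2 probe set differed by -1.75 ± 0.25, with a limma adjusted p = 0.00579 when every probe set of the table was tested. All 8 calls held when any 1 of the 8 arrays was left out. That these steps are wider than in wild-type fish is the same quantity as the difference of genotype changes above, which limma did not call.

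**Figure D4:**
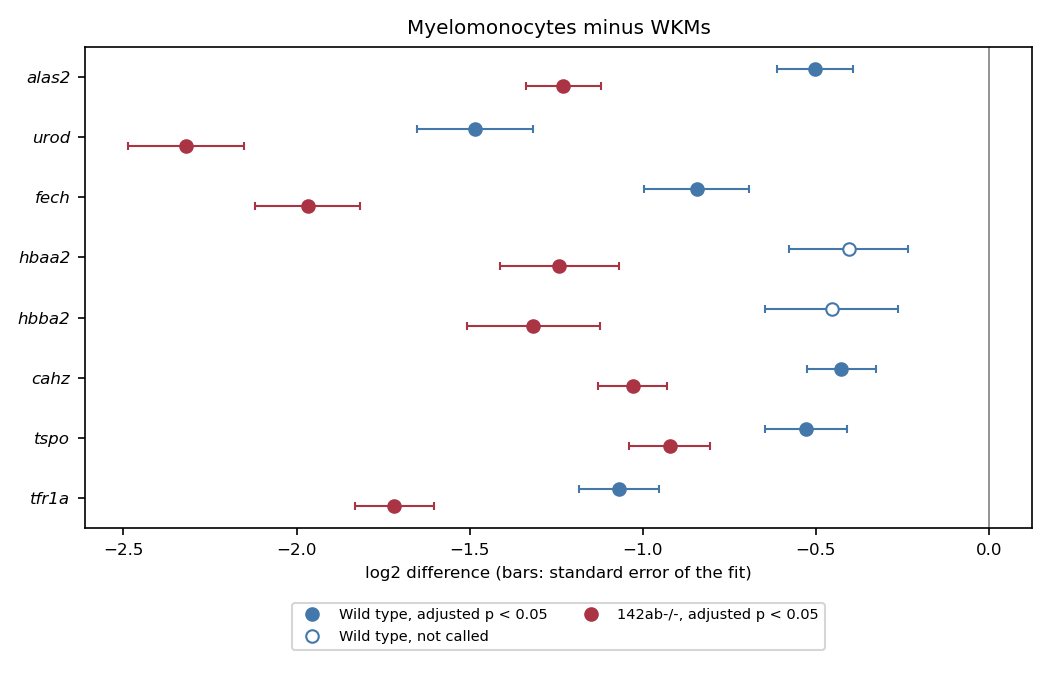
Log2 difference, myelomonocytes minus WKMs, of the 8 genes (rows) in wild-type (blue) and 142ab-/- fish (red), with bars for the standard error of the fit; filled points passed an adjusted p of 0.05 and open points did not. urod has the widest step in both genotypes, -1.49 and -2.32, and hbaa2 and hbba2 are open in wild type at -0.40 and -0.45.

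The marker genes were set beside the population labels. In wild-type fish 9 of 10 neutrophil markers were higher in myelomonocytes than in WKMs (4 without wild-type WKM replicate 1 and 5 without either wild-type myelomonocyte array), while 7 of 7 B cell markers, 5 of 5 T and NK cell markers and 15 of 18 other red cell genes were lower. Of the 13774 genes tested, 2134 were called higher and 20.1% lower in this comparison. Of the 6 monocyte and macrophage markers 0 were higher and 3 lower, with a median of -0.63. The 3 were mpeg1.1 at -1.35 ± 0.22, c1qb at -1.12 ± 0.21 and cd74a at -0.84 ± 0.15 (limma, adjusted p of 0.00452 or less), named after their values were seen. Whether other marrow cells carried these 3 transcripts was not tested, so the label myelomonocytes is not judged by them. The mean level of the 18 red cell genes in the 4 WKM arrays, which the labels describe as free of erythrocytes, lay between 10.42 and 10.64, and that of the 8 globin and haem genes between 12.03 and 12.44. The wild-type myelomonocyte arrays gave a mean of 11.31 and 11.52 for the 8 genes, so the adult globin, haem and iron uptake transcripts were also well above the dim level there. Which cells carried them was not tested. In 142ab-/- fish limma called 7 of 10 neutrophil markers higher in myelomonocytes than in WKMs (4 without 142ab-/- WKM replicate 2). Lower were 7 of 7 B cell, 4 of 5 T and NK cell and 5 of 6 monocyte and macrophage markers. Of 18 other red cell genes 16 were lower and 1 higher. Of 11 kidney tubule and podocyte markers 7 were higher and 1 lower, against 0 and 1 in wild type. Over all genes tested, 2967 were called higher and 22.6% lower.

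The rest of the pathway was read from a list of 66 genes of embryonic globins, haem synthesis, haem handling and iron handling, of which 47 were measured above the dim level. In knockout myelomonocytes 9 of these 47 fell and 3 rose, with a median of -0.04, and in knockout WKMs 4 fell and 4 rose, with a median of 0.10. Over all genes tested, 12.4% were called in either direction in myelomonocytes and 9.28% in WKMs, so the 8 calls among 47 in WKMs and the smaller counts by group below are read against those shares. In myelomonocytes there were 4 calls in place of 12 without wild-type myelomonocyte replicate 2, 6 without wild-type myelomonocyte replicate 1 and 7 without either 142ab-/- myelomonocyte array. In WKMs there were 2 in place of 8 without wild-type or 142ab-/- WKM replicate 2 and 3 without wild-type WKM replicate 1.

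Among 16 genes of haem synthesis and mitochondrial import, 4 fell in knockout myelomonocytes and 0 rose. They were alad, which joins aminolevulinate into porphobilinogen, at -0.80 ± 0.14 (limma, adjusted p = 0.0104), uros, which closes the porphyrin ring, at -0.72 ± 0.17 (0.0297), the porphyrin transporter gene abcb6a at -0.59 ± 0.12 (0.0188) and tmem14cb, a relative of a mitochondrial porphyrin carrier of mammals, at -0.86 ± 0.20 (0.0297). The first 3 were named after their values were seen, and none of the 4 kept its call without wild-type myelomonocyte replicate 2 (up to 0.152), while uros, abcb6a and tmem14cb also lost theirs without wild-type myelomonocyte replicate 1. uros also did so without 142ab-/- myelomonocyte replicate 1, and abcb6a and tmem14cb without 142ab-/- myelomonocyte replicate 2. alas1, the housekeeping relative of alas2, measured 0.13 ± 0.10 (0.457) in myelomonocytes and 0.03 ± 0.10 (0.897) in WKMs. In knockout WKMs tmem14cb changed by -0.90 ± 0.20 (0.0316) and the mitochondrial transporter gene abcb10 rose by 0.54 ± 0.13 (0.0379). tmem14cb lost that call without any 1 of the WKM arrays and abcb10 without either wild-type array of either population or 142ab-/- WKM replicate 2.

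Of 12 genes of haem export, breakdown and carriage, 4 fell and 1 rose in knockout myelomonocytes, and 2 fell in knockout WKMs. The 5 calls in myelomonocytes became 3 without either wild-type myelomonocyte array or 142ab-/- myelomonocyte replicate 1. The fourth gene that fell, hebp2, named after its values were seen, changed by -0.60 ± 0.14 (limma, adjusted p = 0.0319) and lost its call without any 1 of the 4 myelomonocyte arrays (up to 0.159). hmox1a, the haem oxygenase that opens the ring, fell from 9.84 ± 0.15 to 8.53 ± 0.05 in myelomonocytes (SD, n = 2 per group; -1.31 ± 0.15 SE; limma, adjusted p = 0.00238). In WKMs it fell from 9.33 ± 0.32 to 8.13 ± 0.05 (-1.21 ± 0.15; adjusted p = 0.00441), and both calls held when any 1 array was left out. The difference between these changes was -0.11 ± 0.22 (adjusted p = 0.877), against -1.12 ± 0.21 for fech. flvcr1, a haem and choline transporter, changed by -0.94 ± 0.12 in myelomonocytes (0.00277) and by -0.64 ± 0.12 in WKMs (0.0156). The call in WKMs was lost without wild-type WKM replicate 1 or 2 or 142ab-/- WKM replicate 2. blvra, the biliverdin reductase that acts after haem oxygenase, changed by -0.85 ± 0.13 in myelomonocytes (0.00655) and measured 0.14 ± 0.13 in WKMs (0.573). slc48a1a, which moves haem out of lysosomes, rose by 0.54 ± 0.12 in myelomonocytes (0.0260), though not without either wild-type array there or 142ab-/- replicate 1 (up to 0.144).

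Of 15 iron genes, 2 rose and 1 fell in knockout myelomonocytes, and 3 rose and 1 fell in knockout WKMs. slc40a1, which encodes the iron exporter ferroportin, rose by 0.76 ± 0.10 in myelomonocytes (limma, adjusted p = 0.00327) and by 0.69 ± 0.10 in WKMs (0.00675), the latter just above the threshold without wild-type or 142ab-/- WKM replicate 2 (up to 0.0521). tfr1b, the paralogue of tfr1a, rose in myelomonocytes from 10.10 ± 0.48 to 11.21 ± 0.14 (SD, n = 2 per group; limma, adjusted p = 0.0393), and lost its call when any of 5 arrays was left out (up to 0.189), namely 142ab-/- replicates 1 and 2 of both populations and wild-type myelomonocyte replicate 2. In WKMs tfr2, a second transferrin receptor gene, rose by 1.22 ± 0.20 (0.0101) and fth1b, a ferritin heavy chain gene, by 1.18 ± 0.22 (0.0161). tfr2 lost its call without wild-type WKM replicate 1 or 2 (up to 0.0663), and fth1b without wild-type WKM replicate 1 or either 142ab-/- WKM array (up to 0.0952). iscua, a scaffold of iron-sulphur cluster assembly, changed by -0.42 ± 0.11 in myelomonocytes (0.0406) and -0.47 ± 0.11 in WKMs (0.0346), and neither call held without any 1 of the arrays compared (up to 0.190).

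**Figure D5:**
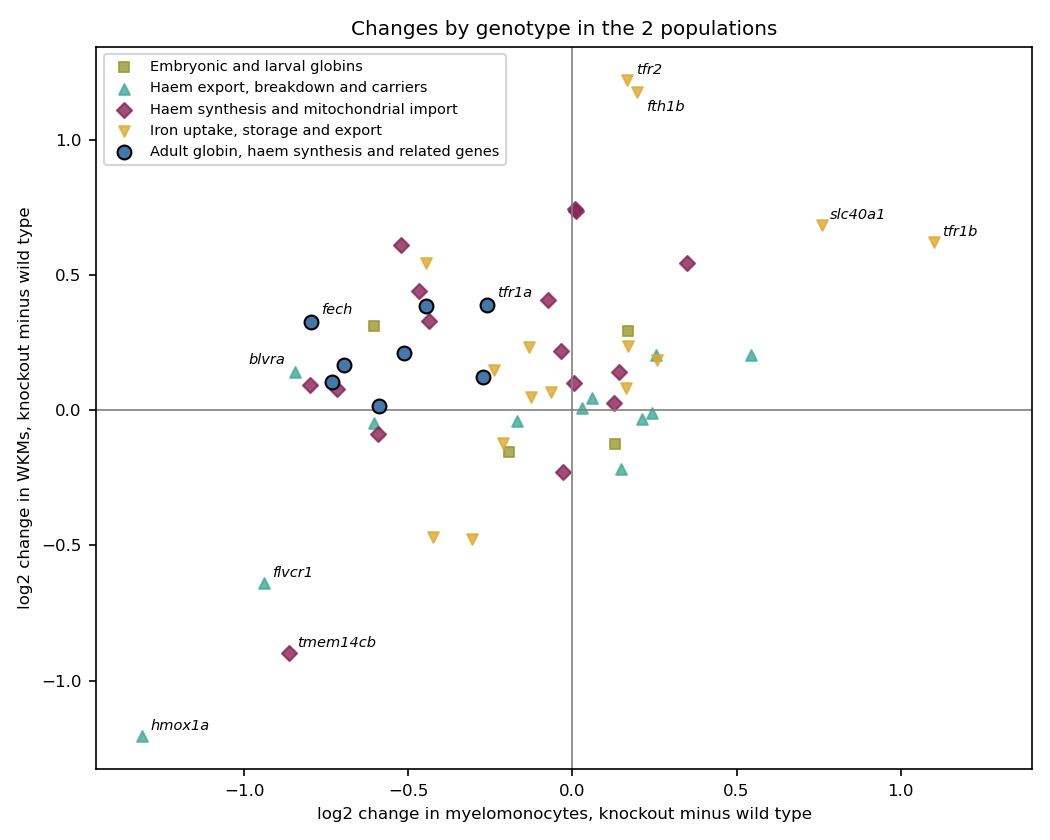
Log2 change, knockout minus wild type, in myelomonocytes (x axis) and WKMs (y axis) for the 8 genes (circles) and 47 other genes of globins, haem and iron (other symbols by group). The circles lie left of 0 and above 0, while hmox1a at -1.31 and -1.21 lies below 0 on both axes and slc40a1 at 0.76 and 0.69 above 0 on both.

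Between the populations, 8 of the 16 haem synthesis genes were called lower in wild-type myelomonocytes than in WKMs and 2 higher, where 20.1% of all genes were called lower, and these 10 calls became 6 without wild-type WKM replicate 2. In the knockout 9 were lower, where 22.6% of all genes were, and 1 higher. ppox, the enzyme before fech, differed by -1.67 ± 0.18 in wild type and -2.44 ± 0.18 in the knockout. hmbsb, which links porphobilinogen units, differed by -1.43 ± 0.16 and -2.57 ± 0.16, and cpox, which acts between urod and ppox, by -1.53 ± 0.24 and -2.27 ± 0.24. tfr2 showed -1.56 ± 0.20 and -2.61 ± 0.20, while slc40a1 was 0.85 ± 0.10 and 0.92 ± 0.10 higher in myelomonocytes (limma, adjusted p of 0.00229 or less for each of these differences). The iron gene steap3 differed by -2.32 ± 0.14 in the knockout. Also called higher in wild-type myelomonocytes were clpxb (0.74 ± 0.20), flvcr1 (0.72 ± 0.12) and aco1 (0.52 ± 0.10). In the knockout, aco1 (0.59 ± 0.10), slc48a1a (0.52 ± 0.12) and iscub (0.47 ± 0.15) were called higher there. The calls of clpxb, slc48a1a and iscub did not hold in every fit with 1 array left out. Of the embryonic and larval globin genes only 4 were measured above the dim level, and 1, hbae4, named after its values were seen, was lower in myelomonocytes, by 0.65 in wild type and 1.57 in the knockout. Its wild-type call was lost without wild-type myelomonocyte replicate 2 or either wild-type WKM array (up to 0.131).

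The 8 genes were compared with each other and with all genes tested by the root mean square difference of their log2 values over the 8 arrays, after centring each gene on its own mean. Genes known only by clone or placeholder names were passed over when the nearest genes were named, so unnamed genes may lie closer. As a description, hbaa2 and hbba2 were the closest pair at 0.08, and cahz and urod the most distant at 0.61. The genes nearest to alas2 outside the 8 were smc4, a condensin subunit, at 0.07, raver1, an RNA-binding protein, cdc7, a kinase that starts DNA replication, traf3, a signalling adaptor, and slc29a2, a nucleoside transporter, up to 0.08. Those nearest to cahz were cdc7 and the chemokine receptor gene ccr9a at 0.07, the ribosomal protein gene rps16, the superoxide dismutase gene sod1 and slc22a23, up to 0.09. Those nearest to hbaa2 were tent5ba at 0.12, cdc7, slc29a2, the kinase gene sgk2a and the transcription factor gene foxo3a, up to 0.14. alas2 and its nearest member of the 8, cahz, differed by 0.11, more than any of the 5 genes named for alas2. Those 5 were picked as the closest from a far larger set than the 8, so this order largely follows from the choice.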

How the data were processed

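Per the labels' protocols, total RNA (200 ng per sample) was turned into biotinylated cRNA and read on Affymetrix arrays of 1 colour. The deposited table holds log2 values of 75212 probe sets on 8 arrays, a scale read from their range of 1.63 to 13.76. How the authors corrected background, summarised probes and normalized is not given in these sources, and the values were used as deposited (array medians 5.49 to 5.54). No scan date or batch was given. Of the probe sets, 20806 had 1 gene symbol in the platform annotation, 855 several and 53551 none here; those with several were not used. The brightest probe set stood for each of 19260 genes, and genes whose mean reached the 50th percentile of all probe sets, 5.52, were tested (13774, with 5486 set aside). The Entrez IDs of all 8 measured genes were found in the RefSeq gene table of GRCz12tu with the same symbols. That table was used for names and gene order only.

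limma 3.58.1 in R 4.3.3 fitted a mean per group to all 8 arrays (4 residual and 4.00 prior degrees of freedom). All tests are two-sided, Benjamini-Hochberg adjusted over all genes tested and called under 0.05. SEs and 95% intervals are those of the fit, and SDs are over 2 arrays, a number that limits the precision. The fit was also run on simulated data, and the outcome is not given here. The simulated noise was independent between arrays, so that run does not cover deviations that arrays share. The 10 genes, the lists of pathway and marker genes and the tests were chosen with earlier results of these data known. Pathway genes were named where they had 1 of the 4 largest called changes of a comparison and direction, unless said otherwise. The alternatives were other probe set rules, dim-gene filters, scalings, weights, variance priors, a replicate block and leaving out each array.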

Additional observations from a re-analysis of the deposited data

Results flagged for a closer look

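The genotype change of 2 red cell marker genes differed between the populations by limma's test of the difference itself. The myelomonocyte change minus the WKM change was -2.24 ± 0.32 for gypc (log2, SE; adjusted p = 0.0472), with a change of -3.14 in myelomonocytes and -0.90 in WKMs. It was -1.33 ± 0.18 for sptb (adjusted p = 0.0382), with -1.12 in myelomonocytes and 0.22 in WKMs. Each group held 2 arrays, and with 1 array left out the adjusted p reached 0.150 for gypc and 0.163 for sptb. gypc kept its call only without 142ab-/- myelomonocyte replicate 1, and sptb lost its call without any 1 of the 8 arrays. Both genes also lost the call with every probe set tested and with quantile normalization, and gypc with the mean of its probe sets. The level of gypc in knockout myelomonocytes was 5.53 ± 0.46 (SD, n = 2), at the dim level of 5.52, so the size of its change there is uncertain.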

How the results depend on the processing

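Over 712 alternative values of the 8 genes' changes, 669 kept their direction and side of the threshold, 22 lost a call, 18 gained one and 3 turned direction. The 3 were hbaa2, hbba2 and cahz in WKMs without wild-type WKM replicate 1; with 1 array left out they ran from -0.019 to 0.23, -0.079 to 0.41 and -0.069 to 0.10. Of the 8 genes, myelomonocyte calls by genotype numbered 4 as reported, 1 with every probe set tested, 2 with only the arrays compared and 0 to 5 with 1 array left out; with every probe set tested, p-values are adjusted over more features. WKM calls numbered 0, but 1 with the trended robust prior and 2 with the replicate block. Calls of the difference of changes numbered 0, but 4 with the trended robust prior and 1 with the replicate block. Population calls in wild type numbered 6, and 3 to 7 with 1 array left out. Of the 47 other pathway genes, calls by genotype in myelomonocytes numbered 12, 5 with every probe set tested and 4 to 12 with 1 array left out. Those in WKMs numbered 8, 3 with every probe set tested and 2 to 9 with 1 array left out. For the difference they numbered 0, and 4 with the trended robust prior. The shares of all genes called with the trended robust prior or the replicate block are not given here. Quantile normalization moved the median wild-type population difference of all genes to 0.09 and the split of all calls to 3036 higher and 2181 lower, from 2134 and 2766, with 6 of the 8 genes still called lower. In WKMs by genotype it gave 832 and 566 in place of 651 and 627. The cause of these shifts was not tested.

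The labels' replicate numbers are not said to mark shared fish. Deviations of same-numbered arrays correlated at 0.41 between the wild-type populations, 0.27 between the knockout populations and -0.000189 to 0.116 otherwise. The replicate block gave 6 calls among the 8 genes in myelomonocytes by genotype and 8 in the wild-type population comparison, the latter with hbaa2 and hbba2. The share of all genes called in that fit is not given here, so these counts are not read as a result about the 8 genes.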

Other observations

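Within each of the 4 groups, the array numbered 2 in the labels gave the higher value for 8 of the 8 genes, on the probe set used for each. The gaps ran from 0.09 to 0.48 in wild-type myelomonocytes, 0.08 to 0.30 in 142ab-/- myelomonocytes, 0.03 to 0.49 in wild-type WKMs and 0.01 to 0.42 in 142ab-/- WKMs. Over all genes tested, the array numbered 2 was the higher for 37.5% to 47.4% of genes in the 4 groups. The second hbaa2 probe set went the other way in 142ab-/- myelomonocytes, at 6.53 on replicate 1 and 6.47 on replicate 2.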
